A study of Mus musculus with 8 samples.

Results

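The expression of 10 regulators and receptors of the melanocyte lineage was followed at the RNA level in B16-OVA, a B16F10-derived melanoma line of the mouse that carries ovalbumin as a model antigen. They were picked by symbol: the transcription factor genes Mitf, Sox10, Pax3, Tfap2a and Sox9 and the receptor genes Mc1r, Kit, Ednrb, Erbb3 and Ngfr. All 10 were present among the 57353 rows of the deposited table, and 9 passed the count filter and were tested. There were 4 Control libraries, from untreated cells, and 4 HMF libraries, from cells given rod-shaped magnetic micromotors (MagRMs) for 24 h and then a high-frequency magnetic field. RNA was taken 6 h later. Every library has the genotype label WT and comes from the same line, and micromotors and field were always given together, so no value belongs to either alone. The labels do not state separate cultures, and the p-values cover only the spread among these libraries, which may be technical.

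MITF is a basic helix-loop-helix transcription factor that drives pigment genes, survival and proliferation in melanocytes and in many melanomas. SOX10 and PAX3 activate Mitf in cells of the neural crest, TFAP2A shares many target sites with MITF, and the receptors MC1R, KIT, EDNRB and ERBB3 carry signals for pigmentation, survival and growth into the lineage. In human melanoma, low MITF together with SOX9, NGFR or AXL is used as a mark of dedifferentiated cells. MC1R raises cAMP, and cAMP in turn raises Mitf transcription through CREB at the promoter that melanocytes use.

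The promoters of Mitf, Mc1r and Kit are shown because these members had the lowest ratios of HMF to Control. The sequences are the 250 bases before the annotated start, from RefSeq on GRCm38.p6, plus strand, in lower case with motif matches in capitals. The promoter shown for Mitf is the most downstream of its 3 annotated starts.
Mitf, chr6:97991533-97991782: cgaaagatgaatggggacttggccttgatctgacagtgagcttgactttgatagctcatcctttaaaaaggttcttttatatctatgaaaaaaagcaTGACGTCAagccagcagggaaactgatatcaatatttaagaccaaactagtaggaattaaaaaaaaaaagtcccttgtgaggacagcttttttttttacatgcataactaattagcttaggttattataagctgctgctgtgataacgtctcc
Mc1r, chr8:123406832-123407081: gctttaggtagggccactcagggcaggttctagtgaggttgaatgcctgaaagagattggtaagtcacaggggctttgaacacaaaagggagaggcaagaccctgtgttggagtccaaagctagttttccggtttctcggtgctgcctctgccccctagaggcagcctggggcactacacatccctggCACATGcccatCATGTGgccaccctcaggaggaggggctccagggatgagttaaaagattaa
Kit, chr5:75574737-75574986: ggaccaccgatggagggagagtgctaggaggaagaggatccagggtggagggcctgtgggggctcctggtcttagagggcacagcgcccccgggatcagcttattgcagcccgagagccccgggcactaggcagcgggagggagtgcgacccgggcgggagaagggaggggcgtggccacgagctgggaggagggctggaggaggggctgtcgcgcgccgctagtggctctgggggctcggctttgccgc
The capitals mark TGACGTCA, the cAMP response element, in Mitf, 153 to 146 bases before the start, and CATGTG, the core of the M-box that MITF binds, in Mc1r, where it lies 51 to 46 bases before the start and, read from the other strand, 62 to 57 bases before it. Both strands were searched for these motifs, the E-box CACGTG and the SOX core ACAAAG, and no matches overlapped. The Kit window held none of the 4. Of 32851 windows of the same length, 1.55% held the cAMP response element, 12.3% CATGTG, 6.02% CACGTG and 16.5% ACAAAG. Of the 10 members 6 had an entry in the promoter table, with 10 windows in all. A match is a run of letters and not a measured binding site, and the counts are per gene, so starts of Mitf cannot be told apart.

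The libraries held 13973961 to 19295358 counts. HMF 4 was the deepest and stood somewhat apart: its median Pearson correlation of log2 CPM with the other HMF libraries, across genes, was 0.984, against 0.991 for each of the others. It was the lowest HMF library for 6 of the 9 detected members and the highest for 2, and values without it are given for the members and for the lists whose calls it changed. Mitochondrial genes took 4.01%, 4.35%, 3.18% and 3.24% of the counts in Control 1 to 4 and 2.77%, 3.57%, 2.47% and 4.45% in HMF 1 to 4, so HMF 4 was the highest of all libraries and Control 1 and Control 2 were above Control 3 and Control 4. The melanocytic markers Tyr, Tyrp1, Dct, Pmel and Mlana summed to 15060 to 16970 CPM in Control and 11420 to 13860 CPM in HMF, where CPM is the read count scaled to a common library size with TMM factors. Markers of other cells were low. None of the macrophage, T and NK cell or keratinocyte markers passed the count filter, and their summed levels stayed below 1 CPM in every library, with Adgre1, Itgam, Cd3e, Cd8a, Krt5 and Krt14 at 0 throughout. The 5 fibroblast markers summed to 14.1 to 29.1 CPM in Control and 8.15 to 12.1 CPM in HMF, and the 5 Schwann cell markers, of which S100b is also expressed in melanoma, to 123 to 166 and 72.6 to 122 CPM. HMF 4 had the lowest Schwann cell sum. Their part in the results was not tested.

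Among the 9 tested members, Sox9 rose and Mitf, Pax3 and Mc1r fell, while Sox10, Tfap2a, Kit, Erbb3 and Ngfr did not pass the test. The threshold was an adjusted p of 0.05 in edgeR's quasi-likelihood test, with Benjamini-Hochberg adjustment over 15082 genes. Of all tested genes 26.7% were called, 13.7% as risen and 13% as fallen, so a count of 4 among 9 genes is given as a description. The CPM of the 2 groups did not overlap for these 4 members, nor for 29.1% of all tested genes, and HMF lay below Control for 3 members and for 14.4% of all tested genes. Without HMF 4, 5 members were called, Erbb3 being added as a rise, against 24.9% of all tested genes, 12.5% risen and 12.3% fallen. The median log2 fold change of all tested genes was -0.02.

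Mitf was lower in every HMF library. It stood at 651, 760, 734 and 751 CPM in Control 1 to 4 and at 591, 482, 591 and 320 CPM in HMF 1 to 4. HMF 4 was by far the lowest, and HMF 1 and HMF 3 lay closest to Control 1. The HMF libraries with the lowest Mitf, HMF 4 and HMF 2, were those with the highest mitochondrial share in that group. Control showed no such order. Control 2, with the highest share there (4.35%), had the highest Mitf, and Control 1, the next in share (4.01%), had the lowest. The part of the mitochondrial share in the result was not tested. The means were 724 ± 49.96 and 496 ± 128 CPM (SD, n = 4 each), and the log2 fold change was -0.55 ± 0.16 (SE; edgeR adjusted p = 0.0285). Without HMF 4 the difference was smaller but its spread was narrower, at -0.38 (adjusted p = 0.00644). The call was lost when Control 2, Control 3, Control 4 or HMF 2 was left out (adjusted p = 0.0675, 0.0593, 0.0669 and 0.0749), with log2 fold changes of -0.52 to -0.54.

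Sox10, the factor that specifies neural crest derived melanocytes and glia, showed no detectable change. Its levels were 724, 705, 803 and 836 CPM in Control and 774, 824, 807 and 673 CPM in HMF. The groups overlapped over nearly their whole range. The log2 fold change was 0.00 ± 0.08 (SE; edgeR adjusted p = 0.972), and its sign turned with the scaling, to -0.039 with library size alone. Pax3, which cooperates with SOX10 at the Mitf promoter, was the most uniform member. It read 220, 222, 223 and 219 CPM in Control and 199, 192, 186 and 197 CPM in HMF, so the groups were apart although the difference was small. It fell by 0.19 ± 0.05 on the log2 scale (SE; edgeR adjusted p = 0.0169), below the median absolute log2 fold change of all tested genes, 0.21. Without HMF 2 or HMF 3 the call of Pax3 was lost (adjusted p = 0.0529 and 0.0631), as it was with the replicate number as a block (0.0874) and without a count filter (0.0584).

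Tfap2a, an AP-2 factor of the neural crest, was 95.1, 105, 77.1 and 78.6 CPM in Control and 93.1, 89.4, 85.7 and 104 CPM in HMF. The HMF libraries lay within the Control range (log2 fold change 0.07 ± 0.10, SE; edgeR adjusted p = 0.684). A predicted gene on the opposite strand, Gm47061, overlaps Tfap2a and held counts equal to 3.5% of those of Tfap2a; whether counting used strand was not given in the sources used here. Sox9, a SOX factor of the same subgroup as Sox10, was higher in every HMF library. It stood at 15.9, 20.1, 22.2 and 19.2 CPM in Control and at 28.2, 29.2, 28.6 and 23.8 CPM in HMF. HMF 1 to 3 lay close together and HMF 4 was nearest to Control. Sox9 rose by 0.50 ± 0.11 on the log2 scale (SE; edgeR adjusted p = 0.0067). It was called under all 18 alternatives, with log2 fold changes of 0.39 to 0.58 and adjusted p of 4.23e-04 to 0.0254.

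**Figure D1:**
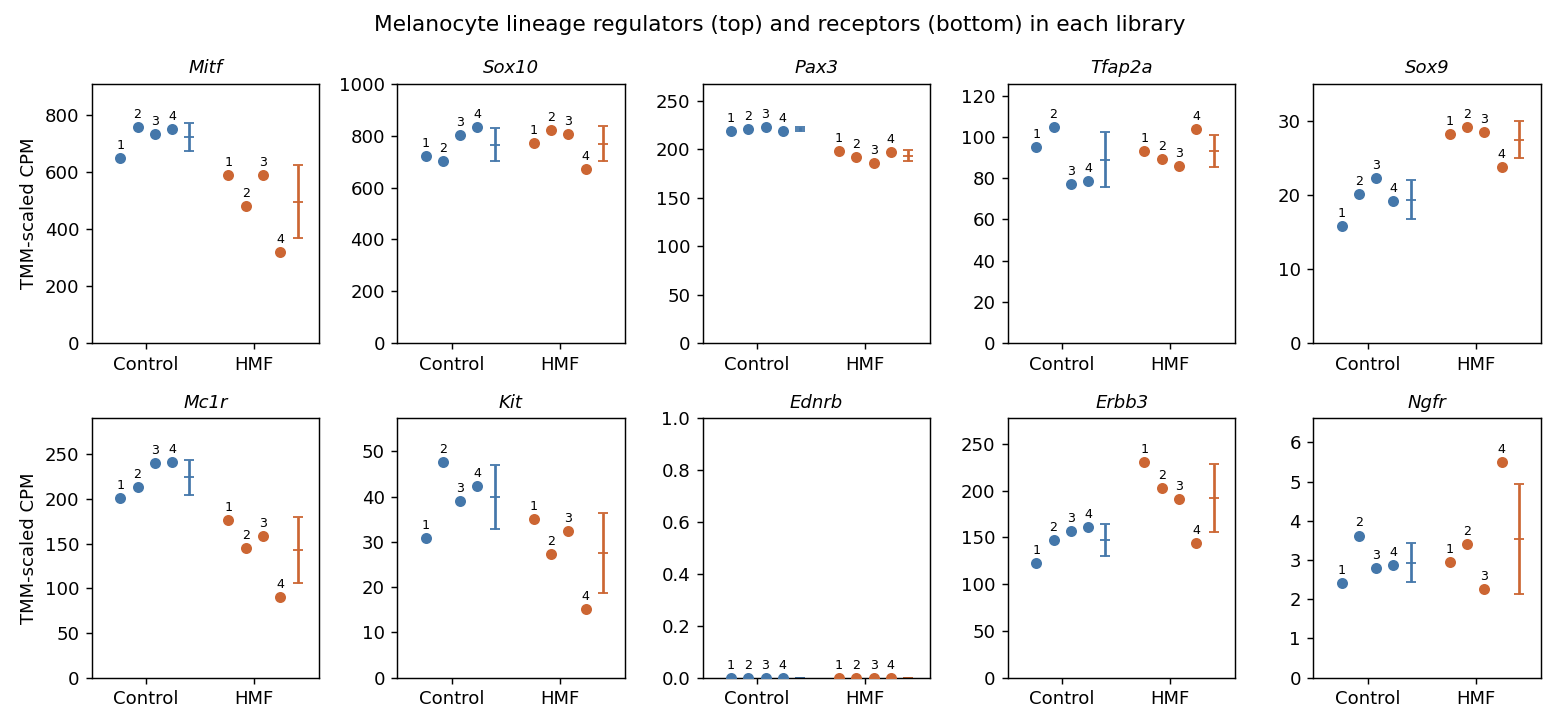
TMM-scaled CPM of the 10 members in each library, with Control in blue and HMF in orange; numbers give the replicate, and the bar beside each group is the mean ± SD (n = 4). The groups are apart for Mitf, Pax3, Sox9 and Mc1r, HMF 4 is the lowest HMF library for Mitf (320 CPM), Mc1r (90.2 CPM) and Kit (15.1 CPM), and Ednrb is at 0 throughout.

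Among the receptors, Mc1r, the receptor for melanocyte-stimulating hormone, had the largest fall of the members. It was 201, 214, 240 and 242 CPM in Control and 177, 146, 159 and 90.2 CPM in HMF. All HMF libraries lay below all Control libraries, with HMF 4 again the lowest. Mc1r fell by 0.65 ± 0.17 on the log2 scale (SE; edgeR adjusted p = 0.0142), and by 0.48 without HMF 4 (adjusted p = 0.00143). No rows with counts overlap it in the table. Leaving out any library kept the call, with adjusted p of 0.00143 to 0.0402.

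Kit encodes the receptor for stem cell factor, on which melanocyte precursors depend. It was 30.9, 47.8, 39.1 and 42.3 CPM in Control and 35.0, 27.4, 32.4 and 15.1 CPM in HMF. The groups overlapped, because HMF 1 and HMF 3 lay above Control 1. Its log2 fold change was -0.55 ± 0.22 (SE; edgeR adjusted p = 0.0926), close in size to that of Mitf but with a wider spread, and -0.34 without HMF 4 (adjusted p = 0.0889). Without a count filter the adjusted p was 0.0264.

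Erbb3, a neuregulin receptor that signals through a partner kinase, was 122, 148, 156 and 161 CPM in Control and 231, 203, 191 and 144 CPM in HMF. HMF 1 to 3 were above every Control library and HMF 4 was below all but 1 of them. With all libraries the log2 fold change was 0.39 ± 0.13 (SE; edgeR adjusted p = 0.0518) and missed the threshold. Without HMF 4 it was 0.50 (adjusted p = 0.00216), and DESeq2 (0.0256), RLE size factors (0.0499) and the fit without a count filter (0.0157) called it too. Ngfr, the low-affinity neurotrophin receptor, was low in all libraries, with 41, 51, 46 and 51 counts in Control and 43, 50, 32 and 103 counts in HMF. HMF 4 alone was high. The log2 fold change was 0.30 ± 0.26 (SE; edgeR adjusted p = 0.445) and -0.02 without HMF 4. Ednrb, the endothelin B receptor gene, had 0 counts in all 8 libraries. A count of 0 allows a level of up to 0.161 to 0.213 CPM, the worth of 3 counts in the deepest and the shallowest libraries, for counting error only.

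**Figure D2:**
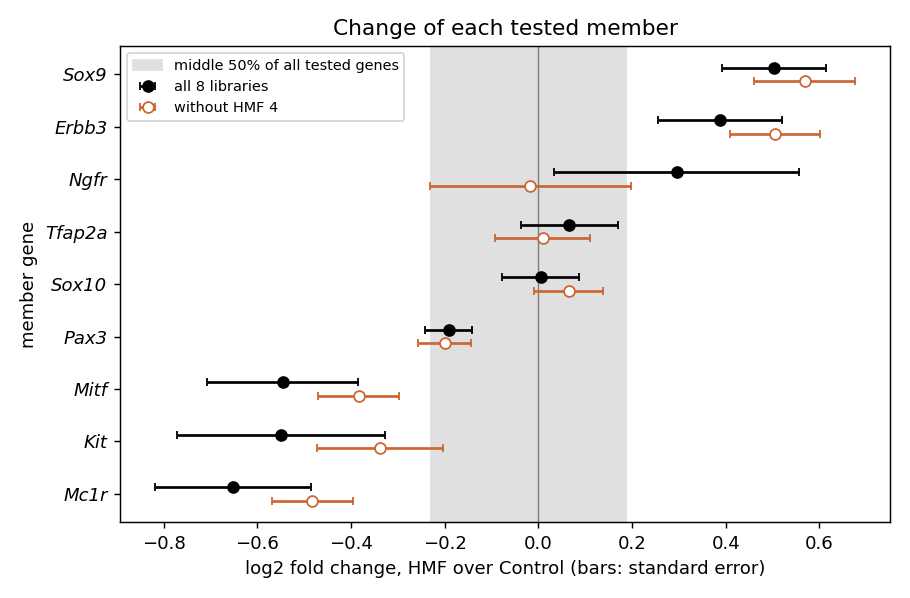
Log2 fold change of HMF over Control for the 9 tested members with all 8 libraries (black) and without HMF 4 (open orange); bars are standard errors, and the grey band holds the middle 50% of all tested genes. Sox9 (0.50) lies above zero and Mitf (-0.55), Kit (-0.55) and Mc1r (-0.65) below it with either set of libraries, while Ngfr moves from 0.30 to -0.02 without HMF 4.

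Per unit of gene length the members spanned a wide range, here in the deposited FPKM of the Control libraries (mean ± SD, n = 4). Sox10 was highest at 255 ± 22.2, followed by Mitf at 118 ± 8.40, Mc1r at 62.5 ± 5.92, Pax3 at 36.2 ± 0.546, Erbb3 at 24.8 ± 3.02 and Tfap2a at 18.4 ± 2.65 FPKM. Sox9 (4.75 ± 0.676), Kit (4.55 ± 0.797) and Ngfr (0.862 ± 0.145) were far lower and Ednrb was listed at 0. Neighbours in this order were apart in every Control library except Erbb3 and Tfap2a, and Sox9 and Kit, whose libraries overlapped. Sox9 was thus measured at a low level next to Sox10 in both groups, at 6.53 ± 0.645 against 248 ± 23.7 FPKM in HMF.

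Ratios of 2 genes within a library need no scaling between libraries. Of the marks of dedifferentiation only Sox9 and Axl were used, so the ratios do not describe the marks in general. Ngfr was in no ratio (log2 fold change 0.30, edgeR adjusted p = 0.445). Nor were the listed marks Pdgfrb (-0.79) and Tead4 (-0.37), which fell. Of 5 ratios computed, 4 were higher in every HMF library than in every Control library, each with the smallest p that 4 against 4 libraries allow (exact permutation test, two-sided, p = 0.0286, adjusted 0.0357 over the 5 ratios). The ratios share genes, so their tests are not independent. For Sox9 to Mitf and Axl to Mitf the separation was fixed before the test. Sox9 and Axl were already above Control, and Mitf below it, in the CPM of every HMF library. Their p-values therefore add nothing to the results of the single genes, and the size of the difference is a description. Both stayed among the 5 ratios of the adjustment. This makes the adjusted p of Sox10 to Mitf and of Sox9 to Sox10 smaller. The log2 ratio of Sox10 to Mitf was 0.15, -0.11, 0.13 and 0.15 in Control and 0.39, 0.77, 0.45 and 1.07 in HMF, a difference of 0.59 (0.46 without HMF 4). Mitf transcripts thus fell relative to those of Sox10 in each HMF library.

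The log2 ratio of Sox9 to Mitf was -5.36, -5.24, -5.05 and -5.29 in Control and -4.39, -4.04, -4.37 and -3.75 in HMF. The groups did not overlap, and the difference of 1.09 (0.97 without HMF 4) is a 2.13-fold higher ratio. The log2 ratio of Sox9 to Sox10 was -5.51, -5.13, -5.17 and -5.44 in Control and -4.78, -4.82, -4.82 and -4.82 in HMF, a difference of 0.51 in both sets of libraries. HMF 4 did not stand low in that ratio, since Sox9 and Sox10 were both at their lowest there.

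Axl, a receptor tyrosine kinase gene that is high in MITF-low human melanoma, gave the widest separation. Its log2 ratio to Mitf was -3.28, -3.47, -3.17 and -3.34 in Control and -1.40, -1.04, -1.37 and -0.34 in HMF, a difference of 2.28 or 4.85-fold (2.05 without HMF 4). Tyr, which encodes tyrosinase and is activated by MITF, kept closer to Mitf. The log2 ratio of Tyr to Mitf was -0.42, -0.35, -0.18 and -0.24 in Control and -0.25, -0.41, -0.49 and -0.48 in HMF; the groups overlapped and the difference of -0.11 did not pass (exact permutation test, two-sided, p = 0.2, adjusted 0.2).

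**Figure D3:**
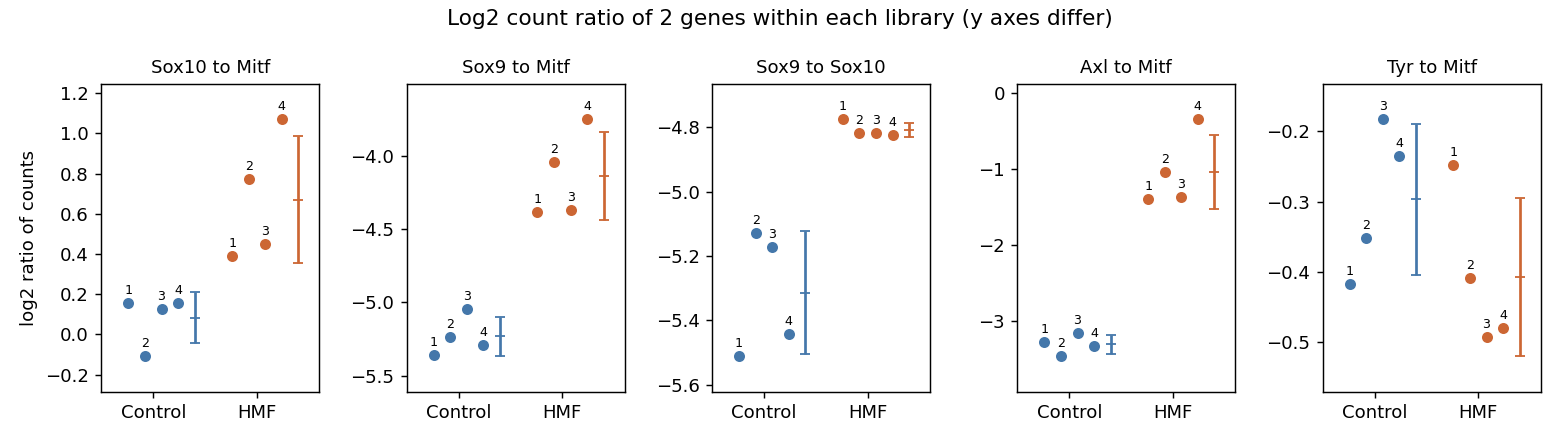
Log2 ratio of the counts of 2 genes within each library, Control in blue and HMF in orange, with replicate numbers and the mean ± SD of each group (n = 4); the y axes differ between panels. The groups are apart for Sox10 to Mitf, Sox9 to Mitf, Sox9 to Sox10 and Axl to Mitf, and overlap for Tyr to Mitf.

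Kit and Mc1r followed Mitf from library to library also within the groups. On deviations of log2 CPM from the group mean over the 8 libraries, Pearson's r to Mitf was 0.97 for Kit, 0.96 for Mc1r, 0.85 for Erbb3, 0.66 for Sox10, 0.64 for Sox9, -0.32 for Pax3, -0.44 for Tfap2a and -0.77 for Ngfr. Without HMF 1 and HMF 4, which deviated most for Mitf, r was 0.88 for Kit and 0.78 for Mc1r over 6 libraries. It was then 0.53 for Sox9, 0.46 for Erbb3, 0.34 for Sox10, -0.30 for Tfap2a, -0.37 for Ngfr and -0.67 for Pax3. Among 9553 genes with an established symbol and a mean log2 CPM of at least 3, those with the highest r to Mitf included Brca1 (0.993), Sema6d (0.993), Syne2 (0.986) and Axin2 (0.985). Without HMF 1 and HMF 4 their r was 0.974, 0.973, 0.945 and 0.922, above that of Kit and Mc1r. A high likeness to Mitf was thus not particular to the members. The values over all libraries describe 8 libraries that share 2 group means, and a search over so many genes finds high values. Of these 4, Brca1 fell by 1.04 and Sema6d fell by 0.84 on the log2 scale (edgeR adjusted p = 0.00166 and 0.00798), and Syne2 and Axin2 did not pass.

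Genes described as MITF targets or as parts of the melanosome leaned downward. Of 24 listed genes 22 were tested, and 10 fell, none rose and 12 did not pass, with a median log2 fold change of -0.27. Mlph, which encodes the melanophilin that links melanosomes to myosin, was 362 ± 18.2 CPM in Control and 206 ± 37.3 CPM in HMF (SD, n = 4), and the log2 fold change was -0.82 ± 0.12 (SE; edgeR adjusted p = 4.49e-04). The cell cycle kinase gene Cdk2, a described MITF target, fell by 0.84 ± 0.18 (adjusted p = 0.00522) and the melanosome transporter gene Slc45a2 by 0.53 ± 0.13 (adjusted p = 0.0104). Gpnmb and Pmel, the most abundant of the genes that did not pass, had log2 fold changes of 0.13 and -0.17. The summed level of the list was lowest in HMF 4, at 20880 CPM against 25510 to 27560 CPM in Control. Without HMF 2, and with the replicate number as a block, 6 genes of the list fell. Of all tested genes 1493 of 15441 and 1322 of 15082 fell in these fits. Without HMF 4, when 12.3% of all tested genes fell and 12.5% rose, 10 of the list fell and 1 rose. The rise was that of Tbx2, a T-box factor gene described as an MITF target. The falls then included Bcl2 (-0.32, edgeR adjusted p = 0.0341) and no longer Ppargc1a (-0.24, adjusted p = 0.0651). Tbx2 had a log2 fold change of 0.39 in that fit (adjusted p = 0.0285) and of 0.29 with all libraries (adjusted p = 0.145).

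**Figure D4:**
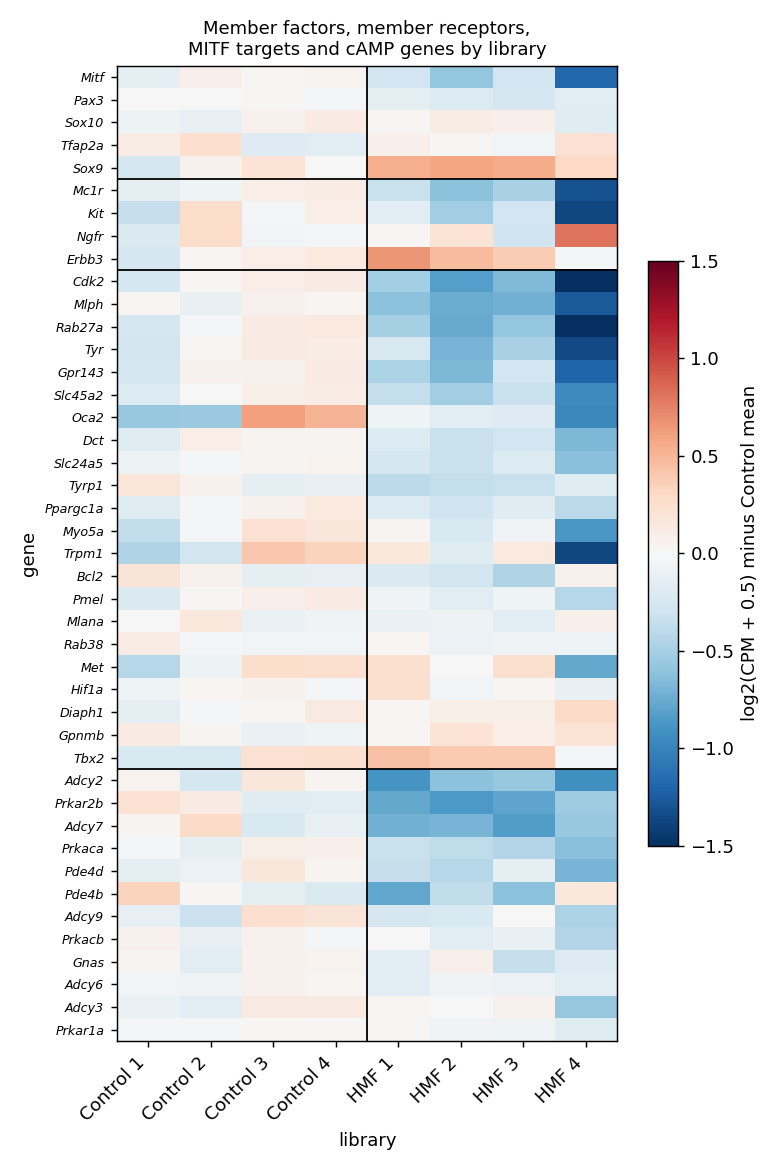
Log2(CPM + 0.5) of each gene minus its Control mean in the 8 libraries, for the member factors, the member receptors, the tested MITF target and melanosome genes, and the cAMP pathway genes, from top to bottom; blue is lower, red is higher, and the darkest shades include values beyond the scale. Mitf, Mc1r, Kit, Cdk2, Rab27a and Tyr are darkest blue in HMF 4, while Adcy7 and Prkar2b are blue in all HMF libraries.

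Genes of the cAMP pathway, through which MC1R acts, were lower or not called. The list mixes cyclase, kinase, regulatory subunit and phosphodiesterase genes, whose products do not all push the signal the same way. Its count and median therefore give no direction for the pathway, whose activity was not measured. All 12 were tested, and 5 fell, none rose and 7 did not pass, with a median log2 fold change of -0.32. The adenylyl cyclase gene Adcy7 was 134, 159, 111 and 120 CPM in Control and 78.8, 79.7, 72.2 and 87.1 CPM in HMF. Here HMF 4 was the highest HMF library, unlike for Mitf. Adcy7 fell by 0.72 ± 0.11 on the log2 scale (SE; edgeR adjusted p = 5.07e-04), Prkar2b, a regulatory subunit gene of protein kinase A, by 0.75 ± 0.11 (adjusted p = 6.42e-04) and the catalytic subunit gene Prkaca by 0.45 ± 0.08 (adjusted p = 0.00157). The other falls were those of Adcy2 (-0.84) and the phosphodiesterase gene Pde4d (-0.41). Without HMF 4, when 12.3% of all tested genes fell, 5 genes of the list fell again, but not the same ones. Pde4d was then not called (-0.32, edgeR adjusted p = 0.0748), and the phosphodiesterase gene Pde4b was (-0.62, adjusted p = 0.0102). Prkar1a (-0.06) and Prkacb (-0.18) did not pass.

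Regulators that act on Mitf transcription were called no more often than all tested genes (26.7%), so their count is a description. Of 18 listed genes 13 were tested, and 3 rose, none fell and 10 did not pass, with a median of 0.08. Sik1 and Sik3 encode salt-inducible kinases, which hold back the CREB coactivators of the CRTC family. Sik1 was 15.2, 14.0, 17.8 and 15.7 CPM in Control and 27.1, 27.2, 28.3 and 30.4 CPM in HMF, with no overlap and little spread. Sik1 rose by 0.85 ± 0.09 on the log2 scale (SE; edgeR adjusted p = 4.88e-05) and Sik3 by 0.23 ± 0.05 (adjusted p = 0.00874). Atf4, a stress factor that lowers MITF in human melanoma cells, rose by 0.45 ± 0.14 (adjusted p = 0.0376), but not without HMF 4 (0.30, adjusted p = 0.0607) nor without Control 2, Control 3, Control 4 or HMF 2 (0.0659 to 0.105). Ctnnb1 (-0.14), which encodes beta-catenin, and Zeb2 (-0.21), a zinc finger factor needed for Mitf expression, did not pass. Zeb2 passed under 6 of the 18 alternatives (adjusted p = 0.0228 to 0.0433), among them library size alone and the fit without HMF 4. Foxd3 and Gli2 were at 0 in all libraries, and Lef1, Pou3f2 and Irf4 were below the count filter.

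Relatives of the member factors changed in both directions. Tfe3, a MITF paralog that responds to lysosomal stress, was 77.6, 62.0, 77.3 and 77.6 CPM in Control and 97.1, 100.4, 96.1 and 97.6 CPM in HMF, and rose by 0.41 ± 0.08 on the log2 scale (SE; edgeR adjusted p = 0.00244). Its HMF libraries were nearly equal, HMF 4 included. The paralog gene Tfeb (-0.10) did not pass and Tfec was below the filter. Of 7 other SOX genes 4 were tested: Sox6 fell by 0.54 ± 0.08 (adjusted p = 6.96e-04), Sox11 fell by 0.36 ± 0.07 (adjusted p = 0.00197), Sox4 rose by 0.29 ± 0.06 (adjusted p = 0.0036), and Sox5 (-0.24) did not pass. None of 6 other AP-2 and PAX genes passed the count filter, and Tfap2c, Tfap2d and Pax7 were at 0.

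The ligands of the receptors were at or near 0 in most cases. Of 12 ligand genes 7 had no counts in any library, among them Edn1, Edn2 and Edn3, the ligands of EDNRB, and Nrg1, a ligand of ERBB3. The 4 that were tested did not pass, with Pomc, which encodes the precursor of melanocyte-stimulating hormone, at 4.28 ± 0.952 CPM in Control and 4.58 ± 1.48 CPM in HMF (SD, n = 4), and Nrg2 at 2.51 ± 0.367 and 2.02 ± 0.487 CPM. Kitl, which encodes stem cell factor, the ligand of KIT, was 0.532, 0.426, 0.366 and 0.732 CPM in Control and 0.343, 1.30, 1.13 and 1.02 CPM in HMF. HMF 2 to 4 lay above every Control library and HMF 1 below every one. The counts were few, at 9, 6, 6 and 13 in Control and 5, 19, 16 and 19 in HMF. The log2 fold change of Kitl was 0.86 ± 0.40 (SE; edgeR adjusted p = 0.14), and without HMF 1 it was 1.13 and called (adjusted p = 0.027). Of 10 partner receptors and receptor modulators 5 were tested, and 3 fell. Sort1 encodes sortilin, a co-receptor of NGFR, and was 421, 485, 547 and 534 CPM in Control and 405, 327, 380 and 220 CPM in HMF. Its HMF libraries had the same order as those of Mitf and Mc1r, from HMF 1 as the highest to HMF 4 as the lowest.

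Sort1 fell by 0.58 ± 0.16 on the log2 scale (SE; edgeR adjusted p = 0.0226), a call lost without Control 3, Control 4 or HMF 2 (adjusted p = 0.0599, 0.0599 and 0.0613). The neurotrophin receptor gene Ntrk3 fell by 0.65 ± 0.17 (adjusted p = 0.0165), a call lost with limma on log2(FPKM + 1), where the value was -0.094 (adjusted p = 0.133), and on log2(FPKM + 0.1), where it was -0.42 (adjusted p = 0.0791). Atrn, which encodes the attractin needed for agouti signalling at MC1R, fell by 0.20 ± 0.06 (adjusted p = 0.0341). The call of Atrn was lost without any 1 of 7 libraries, Control 3 being the exception (adjusted p = 0.056 to 0.0955). Erbb2, whose product pairs with ERBB3, was 35.1 ± 1.23 CPM in Control and 35.5 ± 2.45 CPM in HMF (SD, n = 4; log2 fold change 0.01 ± 0.07, SE), and Mgrn1, which encodes mahogunin, a ubiquitin ligase that dampens MC1R signalling, was 107 ± 7.79 and 97.6 ± 6.34 CPM (log2 fold change -0.14 ± 0.07, SE). Neither passed. The other partner genes Egfr and Erbb4 had no counts.

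Marks of dedifferentiated or invasive melanoma moved in both directions. Of 18 listed genes 9 were tested, and 3 rose, 2 fell and 4 did not pass, with a median of 0.23. Axl was 67.0, 68.7, 81.7 and 74.2 CPM in Control and 224, 234, 229 and 253 CPM in HMF, a wide gap with little spread in either group. Besides Axl (1.69 ± 0.08, SE; edgeR adjusted p = 5.03e-08), the AP-1 gene Jun rose by 0.77 ± 0.16 (adjusted p = 0.00412). The receptor kinase gene Pdgfrb fell by 0.79 ± 0.12 (adjusted p = 5.57e-04) and Tead4 by 0.37. The mesenchymal gene Vim (0.23) and the fibronectin gene Fn1 (0.19) did not pass. Wnt5a, Twist1 and Rxrg had no counts, and Zeb1, Fosl1, Nt5e, Tnc, Aqp1 and Gfra2 were below the filter.

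**Figure D5:**
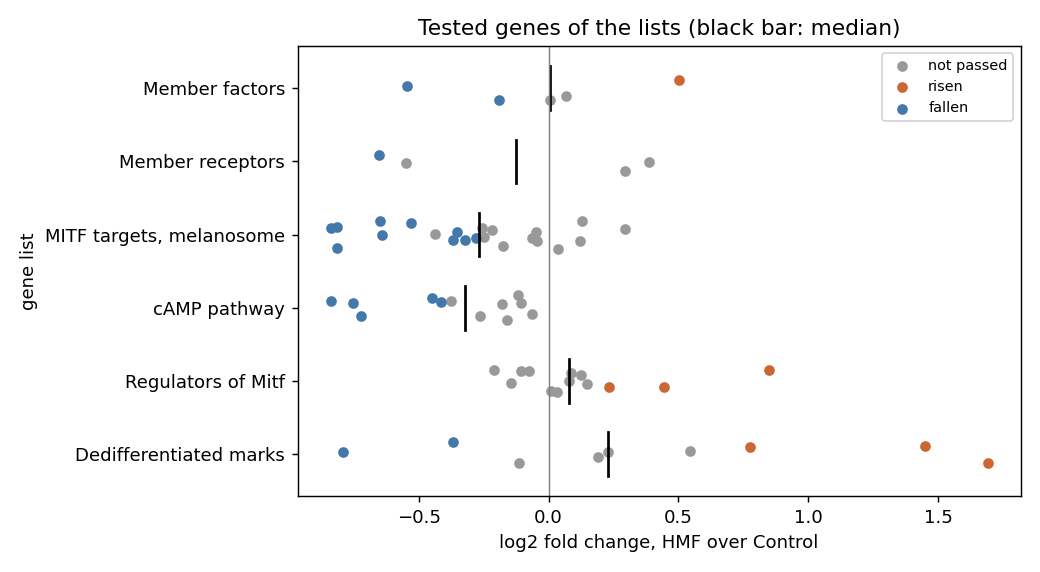
Log2 fold change of HMF over Control for each tested gene of 6 lists, coloured by call (orange risen, blue fallen, grey not passed), with a black bar at the median of each list. The MITF target list (median -0.27) and the cAMP list (-0.32) hold falls and no rise with all 8 libraries (Tbx2 of the target list was called as risen without HMF 4), and the dedifferentiated marks (0.23) hold both.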

How the data were processed

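The deposited table holds raw read counts per gene and FPKM for 8 libraries, grouped by their titles because the treatment tag is the same for all. The submitters' processing notes name Trimmomatic, HISAT2 2.0.5, HTSeq, DESeq2 and mm10; roles, annotation and strand were not given in the sources used here. Deposited FPKM values follow from the counts, the library total and 1 length per gene.

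From the counts, edgeR 4.0.16 in R 4.3.3 (TMM, filterByExpr, quasi-likelihood test, group as the only term) tested 15082 genes. A standard error is the size of the log2 fold change divided by the root of F. Ratios used counts plus 0.5. Limma 3.58.1, on log2(FPKM + 1) and log2(FPKM + 0.1), and DESeq2 1.42.0 were alternatives, as were other scalings and filters, a stricter threshold, a replicate block and leaving out each library. On simulated data for 15082 genes, recovery was 53.7% of 67 genes changed 1.5-fold, 77.6% of 67 changed 2-fold and 97.0% of 66 changed 4-fold. Of 162 calls 10 were false. Far fewer genes were changed there than were called in the data, and no simulated library was set apart as HMF 4 was. The recovery therefore need not hold for the data. Replicates differed beyond sampling noise (lowest chi-square per degree of freedom 2.13). The members and lists were chosen with earlier results of these data known. Per list, the text names the 3 called genes of smallest adjusted p and the 2 most abundant that did not pass. Further genes were chosen after their values were seen, because they complete a count, changed their call in another fit or stood at 0. The positions in the deposited table were used only to find rows that overlap a member within that table; their build was not settled, so none is printed. A few genes of these lists are not reported here.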

Additional observations from a re-analysis of the deposited data

Results flagged for a closer look

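In groups of 4 a library was singled out when its gap to the nearest other, over the whole range, passed Dixon's 95% critical value. This was applied to 96 groups of values, and chance alone passes about 1 in 20; 6 passed. The log2 ratio of Sox10 to Mitf was lowest in Control 2 (-0.11). The log2 ratio of Sox9 to Sox10 was highest in HMF 1 (-4.78), within a group that spans a very narrow range. Tfe3 was lowest in Control 2 (62.0 CPM), Sox6 was highest in Control 4 (32.9 CPM), Ntrk3 was lowest in HMF 4 (3.10 CPM) and Atrn was lowest in Control 3 (71.0 CPM). HMF 4 did not pass for Mitf, Mc1r, Kit, Erbb3 or Ngfr.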

How the results depend on the processing

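At an adjusted p below 0.01, 2288 genes and 1 member, Sox9, were called. Leaving out 1 library gave 3140 to 3804 called genes and 2 to 5 called members, the lowest without HMF 2. The log2 ratio differences then ranged from 0.46 to 0.68 (Sox10 to Mitf), 0.97 to 1.18 (Sox9 to Mitf), 0.44 to 0.57 (Sox9 to Sox10), 2.05 to 2.40 (Axl to Mitf) and -0.16 to -0.07 (Tyr to Mitf). Among the named genes, directions turned only for some that were not called. Those of Trpm1 and Met, given below, turned without HMF 4. With library size alone, the log2 fold change was -0.039 for Sox10 and -0.031 for Erbb2; with limma on log2(FPKM + 1) it was -0.040 and -0.027, and on log2(FPKM + 0.1) -0.040 and -0.031. With upper quartile scaling that of Sox10 was -0.0083. Over the libraries left out, the ranges were -0.029 to 0.065 (Sox10), -0.018 to 0.061 (Erbb2, lowest without HMF 2), -0.017 to 0.46 (Ngfr, lowest without HMF 4), -0.23 to 0.067 (Tfeb, above 0 without Control 4 or HMF 4) and -0.056 to 0.29 (Pomc, below 0 without Control 2 or HMF 4). The cause was not tested. Rises and falls of all genes split as 2073 and 1957 with TMM, as 1743 and 2435 with library size alone and as 1625 and 2311 with limma on log2(FPKM + 1). Same-numbered libraries did not deviate together (r of -0.32 to 0.22, with 2 of 8 libraries correlating best with their own number); with the replicate block 2785 genes and 3 members were called. Of 324 counts of rises or falls in a list, 15 moved by over 1.5 times. Depth limits Ngfr, with at most 103 counts in a library, and Kitl, with at most 19.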

Other observations

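Within Control, some genes of the MITF target list were lower in Control 1 and Control 2 than in Control 3 and Control 4, and others were higher. Oca2, Trpm1 and Met were among the lower. Tyrp1 (4108, 3762, 3292 and 3336 CPM in Control 1 to 4) and Gpnmb (6581, 6181, 5609 and 5778 CPM) went the other way, so the list did not move as a whole. Control 1 and Control 2 also had the higher mitochondrial share, and its part in these values was not tested. Oca2, a melanosome channel gene, was 9.997, 10.09, 23.4 and 21.7 CPM in Control 1 to 4 and 7.49 to 14.5 CPM in HMF. Trpm1 was 193, 218, 349 and 335 CPM in Control and 102 to 295 CPM in HMF, and the receptor kinase gene Met was 349, 446, 563 and 553 CPM in Control and 275 to 554 CPM in HMF. Oca2, Trpm1 and Met did not pass the test between the groups (edgeR log2 fold changes of -0.44, -0.25 and -0.05). Without HMF 4 the values were -0.26, 0.0003 and 0.14, so the signs of Trpm1 and Met turned, and again none passed. The genes of this paragraph were picked after their values were seen.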
